A study of Mus musculus with 7 samples.

Results

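Open chromatin of Sox2-positive cells sorted from the mouse lower incisor was compared with that of the whole lower incisor at postnatal day 2. A region was called sorted-only where both sorted libraries had an autosomal peak and the incisor library had none, and incisor-only where the incisor had a peak and neither sorted library had one. Peaks that shared at least 1 bp were merged, which gave 69328 autosomal regions from the 3 libraries, out of 128642 from all 7 libraries of the series. Of the 69328 regions, 1294 were sorted-only, 20725 were incisor-only and 27547 had a peak in all 3 libraries. The same rule was applied to the top 38000 autosomal peaks of each library by p-value, and 1119 sorted-only and 5946 incisor-only regions kept their side at both list lengths. The top lists held 90.8% and 99.1% of the peaks of sorted replicates 1 and 2 and 61.2% of those of the incisor. The step thus filtered the incisor side more: 86.5% of the sorted-only and 28.7% of the incisor-only regions kept their side. Gene groups are described first by the regions that kept their side.

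Per the labels, the sorted cells came from Sox2-GFP mice, in which GFP is driven by the endogenous Sox2 promoter. The labial cervical loop of P2 lower incisors was dissociated with Collagenase and Neutral Protease, and the Sox2-positive cells were taken by FACS (replicates 1 and 2). The whole incisor was dissected at P2 and gave 1 library, as did the lower and the upper first molar at P2. The first pharyngeal arch ectoderm was peeled from the mesenchyme of E11.5 embryos after Dispase II and gave 2 libraries. The genotype and strain of the mice that gave the whole teeth and the ectoderm, the number of animals in a library and the sorting gate are not given in the labels. The whole incisor also holds the cervical loop, so the sorted cells are a fraction of the tissue they were set against, and the genotype, the dissociation and the sort cannot be told apart from cell type.

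The mouse incisor grows throughout life, fed by epithelial progenitors in the labial cervical loop at its growing end. Sox2, a transcription factor, marks part of these progenitors. Their progeny become ameloblasts, which secrete enamel, and the cells of the stratum intermedium and stellate reticulum beside them, while the dental mesenchyme inside the tooth gives rise to pulp and to odontoblasts, which make dentin. Pharyngeal arch ectoderm is the embryonic source of the tooth epithelium. In ATAC-seq a transposase cuts accessible DNA, and a peak marks a site that was cut often. A peak at a gene does not show that the gene was transcribed.

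Gene starts that lay under a region open on 1 side at both list lengths were few, and the sequences that precede 7 of them are shown because the finding at these genes is a peak over the start itself. Each is the 250 bases before the annotated start, read 5′ to 3′ along the gene's strand, from RefSeq on GRCm38.p6. Capitals mark any match, on either strand, to the letters TGANTCA (AP-1), GGAATG (TEAD), GGGCGG (KLF and SP factors) or AACCNGTT (grainyhead-like factors). No matches overlapped in these windows. The first 4 starts lay under sorted-only regions.
Rab25, chr3:88548280-88548529, minus strand: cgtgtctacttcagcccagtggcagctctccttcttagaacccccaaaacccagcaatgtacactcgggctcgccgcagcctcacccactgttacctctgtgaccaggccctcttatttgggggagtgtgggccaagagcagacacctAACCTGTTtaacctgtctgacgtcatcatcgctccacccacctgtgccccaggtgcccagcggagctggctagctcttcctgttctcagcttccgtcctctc
Cldn4, chr5:134946935-134947184, minus strand: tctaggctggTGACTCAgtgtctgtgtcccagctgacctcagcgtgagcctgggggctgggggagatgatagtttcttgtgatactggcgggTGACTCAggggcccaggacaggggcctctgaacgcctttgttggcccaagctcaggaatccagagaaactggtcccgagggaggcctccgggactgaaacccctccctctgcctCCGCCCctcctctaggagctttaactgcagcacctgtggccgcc
Sfrp5, chr19:42202253-42202502, minus strand: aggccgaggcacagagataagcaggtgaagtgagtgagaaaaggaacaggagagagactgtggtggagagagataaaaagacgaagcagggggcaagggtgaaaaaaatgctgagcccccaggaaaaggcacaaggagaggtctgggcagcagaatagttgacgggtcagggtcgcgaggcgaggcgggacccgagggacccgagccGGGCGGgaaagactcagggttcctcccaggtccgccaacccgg
Klk4, chr7:43880910-43881159, plus strand: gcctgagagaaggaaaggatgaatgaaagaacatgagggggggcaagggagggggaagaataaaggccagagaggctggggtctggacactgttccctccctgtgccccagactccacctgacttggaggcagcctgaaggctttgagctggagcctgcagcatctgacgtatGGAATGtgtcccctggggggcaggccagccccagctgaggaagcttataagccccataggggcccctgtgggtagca
The other starts lay under incisor-only regions.
Galnt6, chr15:100729377-100729626, minus strand: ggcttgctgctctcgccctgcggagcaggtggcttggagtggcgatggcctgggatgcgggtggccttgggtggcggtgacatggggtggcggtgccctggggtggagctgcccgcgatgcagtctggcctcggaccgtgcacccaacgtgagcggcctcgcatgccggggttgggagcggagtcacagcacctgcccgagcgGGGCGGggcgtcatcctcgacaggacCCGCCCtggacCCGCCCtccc
Fetub, chr16:22918132-22918381, plus strand: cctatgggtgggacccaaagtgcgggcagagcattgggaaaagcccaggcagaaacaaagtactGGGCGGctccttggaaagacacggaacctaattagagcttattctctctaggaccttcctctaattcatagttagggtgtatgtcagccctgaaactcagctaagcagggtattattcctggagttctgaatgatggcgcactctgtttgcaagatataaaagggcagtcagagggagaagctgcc
Mmp20, chr9:7627981-7628230, plus strand: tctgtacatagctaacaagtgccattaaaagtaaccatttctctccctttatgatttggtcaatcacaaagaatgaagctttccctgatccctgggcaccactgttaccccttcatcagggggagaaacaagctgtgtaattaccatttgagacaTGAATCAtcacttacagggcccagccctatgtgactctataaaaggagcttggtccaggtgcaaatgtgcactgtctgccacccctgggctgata

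The capitals in Cldn4 are 2 AP-1 matches and 1 KLF/SP match, and the single match in Rab25 is of the grainyhead-like kind. Sfrp5 and Fetub had 1 KLF/SP match each, Galnt6 had 3, Klk4 had 1 TEAD match and Mmp20 had 1 AP-1 match. Such matches describe the letters only. Over the 35 autosomal starts under regions sorted-only at both lengths, 20.0% held AP-1 letters in the same window (7 starts, Wilson 95% interval 10 to 35.9). The share was 15.5% of the 71 starts under incisor-only regions (8.88 to 25.7), 3.44% of the 10758 starts under shared regions and 6.18% of all 20085 starts. It was 7.12% of the 309 starts under sorted-only regions of the top lists, 8.16% of the 343 under incisor-only regions with all peaks and 9.54% of the 8228 with no peak in the 3 libraries. In the sets sorted-only and incisor-only at both lengths, shared and all starts, TEAD letters stood in 20.0%, 12.7%, 9.71% and 11.5%. KLF/SP letters, which follow GC content, stood in 54.3%, 47.9%, 65.1% and 43.4%, and grainyhead-like letters in 2.86%, 4.23%, 1.41% and 1.69%. Median GC content of the windows was 58.8% for sorted-only, 55.2% for incisor-only and 61.6% for shared starts. TEAD letters also stood in 13.3% of sorted-only starts of the top lists and 15.7% of incisor-only starts with all peaks. Other motifs were counted too, and of these only the SOX letters are given. In the same 4 sets ACAAAG stood in 8.57%, 12.7%, 10.5% and 14.7%, and ACAATG in 2.86%, 7.04%, 5.10% and 8.77%. At both lengths the intervals of the sorted-only and incisor-only sets overlapped for every motif counted.

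The peak lists differed in length, and the whole-incisor list was the longest. Replicates 1 and 2 of the sorted cells had 41829 and 38326 autosomal peaks and the incisor had 62074. The files hold no read counts, so the depth behind these numbers is unknown, and a site without a peak may be closed or only below the caller's limit. With all peaks, sorted-only regions were 1.87% of the merged regions and incisor-only regions 29.9%. With 38000 peaks per library the shares were 7.10% and 12.2%, from 3730 and 6381 of 52514 regions. Of the 3730 regions, 70.0% (2610) had an incisor peak further down its full list, whereas 6.82% (435) of the 6381 had a sorted peak in a full list. Peaks at the 38000th place had a −log10 p of 3.33 and 2.94 in the sorted libraries and 4.01 in the incisor, and the first peak left out had the same value in each. Most top-list sorted-only regions were thus sites where the incisor peak was weaker in rank, not missing. With 2 sorted libraries and 1 incisor library no test of the difference was available, and the intervals given are Wilson 95% intervals that cover the counting of regions alone.

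**Figure D1:**
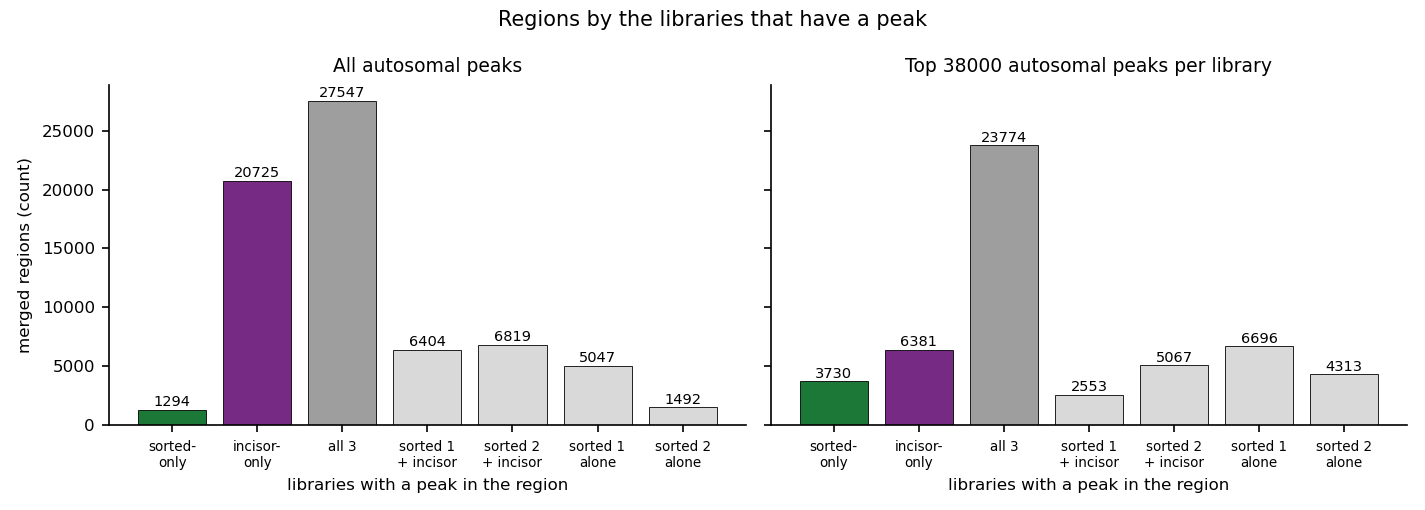
Number of merged autosomal regions (y axis) by the libraries that have a peak in them (x axis), with all peaks on the left and the top 38000 peaks per library on the right. Sorted-only regions number 1294 and 3730, incisor-only regions 20725 and 6381; grey bars are regions of other combinations.

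The sorted libraries carried peaks at the starts of genes of other cell types, and the 2 replicates were not alike in this. With all peaks, a peak lay within 1 kb of the start of 12 and 12 of 12 dental epithelial progenitor genes and of 18 and 17 of 22 general epithelium genes in sorted replicates 1 and 2, against 11 and 17 in the incisor. The sorted libraries also had a start peak at 21 and 22 of 26 dental mesenchyme genes, against 23 in the incisor, and at 8 and 11 of 15 odontoblast and bone genes, against 13. Over all 20665 autosomal protein-coding genes the shares were 59.7%, 58.4% and 62.2%. In the top lists, which are equal in length, 17, 17 and 11 of the 22 general epithelium genes had a start peak in these libraries. Dental mesenchyme genes with one were 21, 22 and 21 of 26, and odontoblast and bone genes 8, 11 and 10 of 15. Over all genes the shares at that length were 58.4%, 58.3% and 56.6%. For 124 of 367 list genes the table of starts has no entry, and a peak within 1 kb of either gene end was counted instead. Among the genes whose start signal or distance is given, these include Alx1, Cdh1, Col1a1, Gli1, Grhl2, Lgr5, Shh, Sox10, Sox18, Sp7 and Trp63, for which start means either end. Epithelial Krt14 had start signals of 2230 and 1960 and Cdh1, which encodes E-cadherin, 709.0 and 677.0. Mesenchymal Pdgfra, a growth factor receptor, had 613.6 and 306.9, Alx1 1278 and 1229, and the bone regulator Sp7 3244 and 4450. The start of Col1a1, which encodes a chain of type I collagen, had 1188 and 3253. The E11.5 ectoderm libraries, peeled from mesenchyme, had a start peak at 21 and 21 of the 26 dental mesenchyme genes and at 8 and 7 of the 15 odontoblast and bone genes. Alx1 had 810.7 and 389.6 there, Sp7 2157 and 1304 and Col1a1 1722 and 1339, while Pdgfra had none. With all peaks, the lists of the sorted libraries thus held peaks at many genes of the mesenchyme list, as the longer ectoderm lists did. In the top lists the ectoderm had a start peak at 11 and 16 of the 26, against 21 and 22 in the sorted libraries. For the 15 odontoblast and bone genes the counts there were 6 and 7 against 8 and 11. The Alx1 peak was in neither top list of the ectoderm and in both of the sorted cells. Whether mesenchymal cells contributed to the sorted lists was not tested.

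Endothelial starts were a point of difference between the replicates. With all peaks, 5 of 22 endothelial genes had a start peak in replicate 1, 9 in replicate 2 and 11 in the incisor. The ectoderm libraries had 13 and 12 and the lower and upper molar 10 and 7, so the count was not highest in whole teeth. In the top lists, which are equal in length, the counts were 4 in replicate 1, 9 in replicate 2 and 5 in the incisor. The ectoderm then had 6 and 7 and the molars 3 and 2. Replicate 2 thus had the highest count of any library at equal length, above the incisor. Whether the replicates differed in endothelial cells was not tested. Tie1, a vascular receptor, had none in replicate 1 and signals of 596.7 in replicate 2 and 855.7 in the incisor. Flt1 (351.7 in replicate 2), Flt4 (211.9), Eng (270.4) and Sox18 (231.4) also had a start peak in replicate 2 and none in replicate 1. The start of Erg went the other way, with 236.0 in replicate 1 and none in replicate 2. The starts of Flt1, Flt4, Sox18 and Erg had a peak in both ectoderm libraries, and those of Tie1 and Eng in neither. The neural crest and Schwann cell regulators Sox10 and Foxd3 had none in any of the 3 libraries. Of the regions of replicate 1, 84.3% had an incisor peak, and of those of replicate 2, 92.5% did (71.6% and 78.2% at equal length). Regions in a replicate and the incisor but not in its partner numbered 6404 for replicate 1 and 6819 for replicate 2 over all regions. They were 10 and 29 at endothelial genes and 8 and 21 at odontoblast and bone genes. The order was the other way at dental mesenchyme genes, with 20 and 18, and at general epithelium genes, with 12 and 9.

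**Figure D2:**
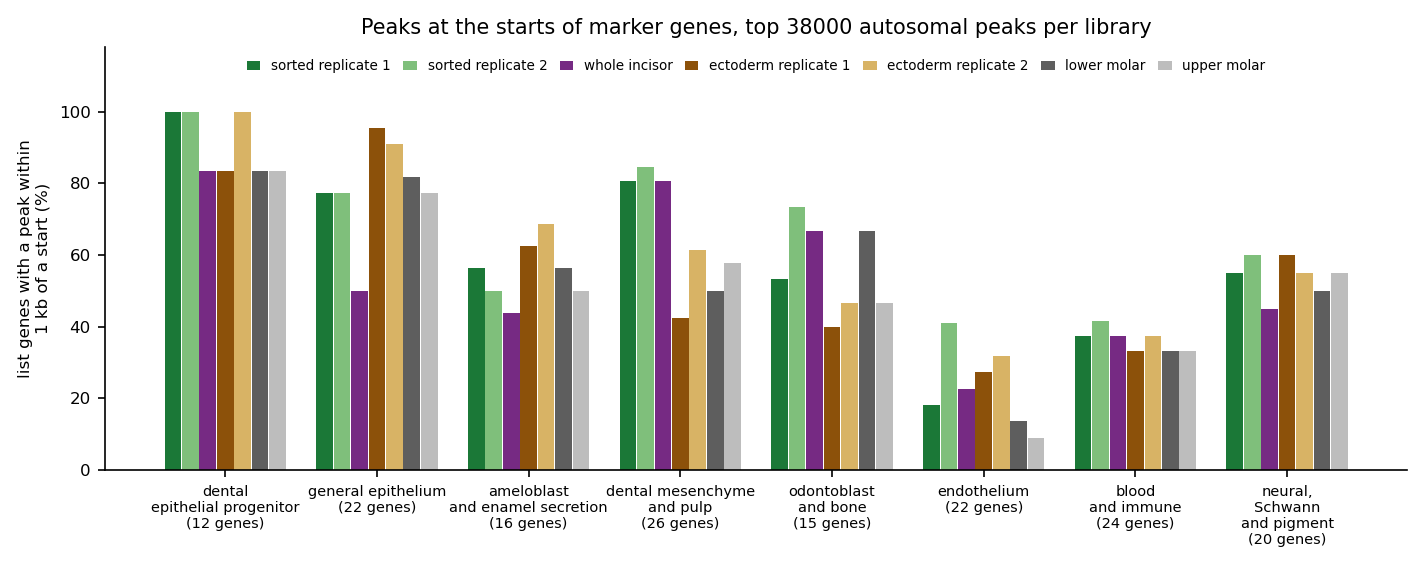
Share of the genes of 8 marker lists (x axis, number of genes in brackets) that have a peak within 1 kb of a start (y axis, percent), for each of the 7 libraries at 38000 peaks each. Of the 22 endothelial genes, 4 have one in sorted replicate 1 and 9 in replicate 2, and of the 26 dental mesenchyme genes 21 and 22 have one. Over all genes the shares are 58.4%, 58.3% and 56.6% in the sorted replicates and the incisor.

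The sorted reporter's own gene had a start peak in every library. Signals at the Sox2 start were 512.1 and 419.0 in the sorted libraries and 230.6 in the incisor, and 2444 and 2733 in the ectoderm and 312.1 and 244.8 in the molars. Signals were not normalized between libraries, so signals given side by side for different libraries are not on one scale. By rank within each list the Sox2 start stood at 50.6% and 62.1% from the top in the sorted libraries and 92.9% in the incisor. In the ectoderm it stood at 12.2% and 12.5%, and in the lower and upper molar at 77.3% and 90.0%. At 38000 peaks per library the Sox2 start was called in both sorted and both ectoderm libraries and in none of the whole teeth, so it was sorted-only at that length alone. All 12 genes of the progenitor list had a start peak in both sorted libraries at that length, and 10 did in the incisor. The transcription factor Isl1 (1045 and 846.8 in the sorted libraries, 1335 in the incisor) and the receptor Lgr5 (520.8, 1076 and 827.3) were in the top lists of all 3. Gli1, a Hedgehog target and effector, had 4574, 3124 and 4972, and Bmi1, a Polycomb protein, had 932.9, 1629 and 3297. The starts of Igfbp5 (464.5, 615.5 and 835.9), Lrig1 (2378, 2745 and 3428), Sox21 (405.2, 457.2 and 1624), Fgf9 (687.3, 510 and 959.0) and Yap1 (3022, 2547 and 3930) also had a peak in all 3.

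Sfrp5 was the progenitor gene whose start was open on the sorted side alone at both lengths. The gene encodes a secreted WNT inhibitor, and the region at its start, chr19:42201626-42202319, overlaps the sequence printed above. Its signals were 246.0 and 373.3 in the sorted libraries, with no incisor peak, and 987.9 and 643.7 in the ectoderm and 402.0 and 476.5 in the molars. The incisor was the only one of the 7 libraries without a peak there. A region inside Lrig1, which encodes a transmembrane regulator of growth factor receptors, was also sorted-only at both lengths (502.8 and 406.3, chr6:94653592-94654170, 46.3 kb from the start). It had a peak in both ectoderm libraries (1346 and 670.1) and in neither molar. A region assigned to Yap1, a coactivator of TEAD factors (850.6 and 594.4, chr9:7903387-7904145), had a peak in no other library of the series. It lay nearer to the start of Birc3, at 30.6 kb, than to that of Yap1. At 38000 peaks per library the progenitor list had 10 sorted-only regions and 2 incisor-only, a sorted-only share of 83.3% (Wilson 95% interval 55.2 to 95.3) against 37.1% over all genes. With all peaks it was 3 against 9, against a share of 5.69% over all genes, and the 3 sorted-only and 2 incisor-only regions that held at both lengths compare with a share of 15.5% over all genes. The counts were 7 against 3 for the top 38000 peaks by signal and 0 against 2 with the better 50% of each list by p-value. Leaving out replicate 1 or 2 gave 5 or 13 sorted-only regions with all peaks. The extra regions of the top lists included 3 in Igfbp5 and 1 each at Sox2, Fgf9 and Yap1, and each had an incisor peak in the full list.

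**Figure D3:**
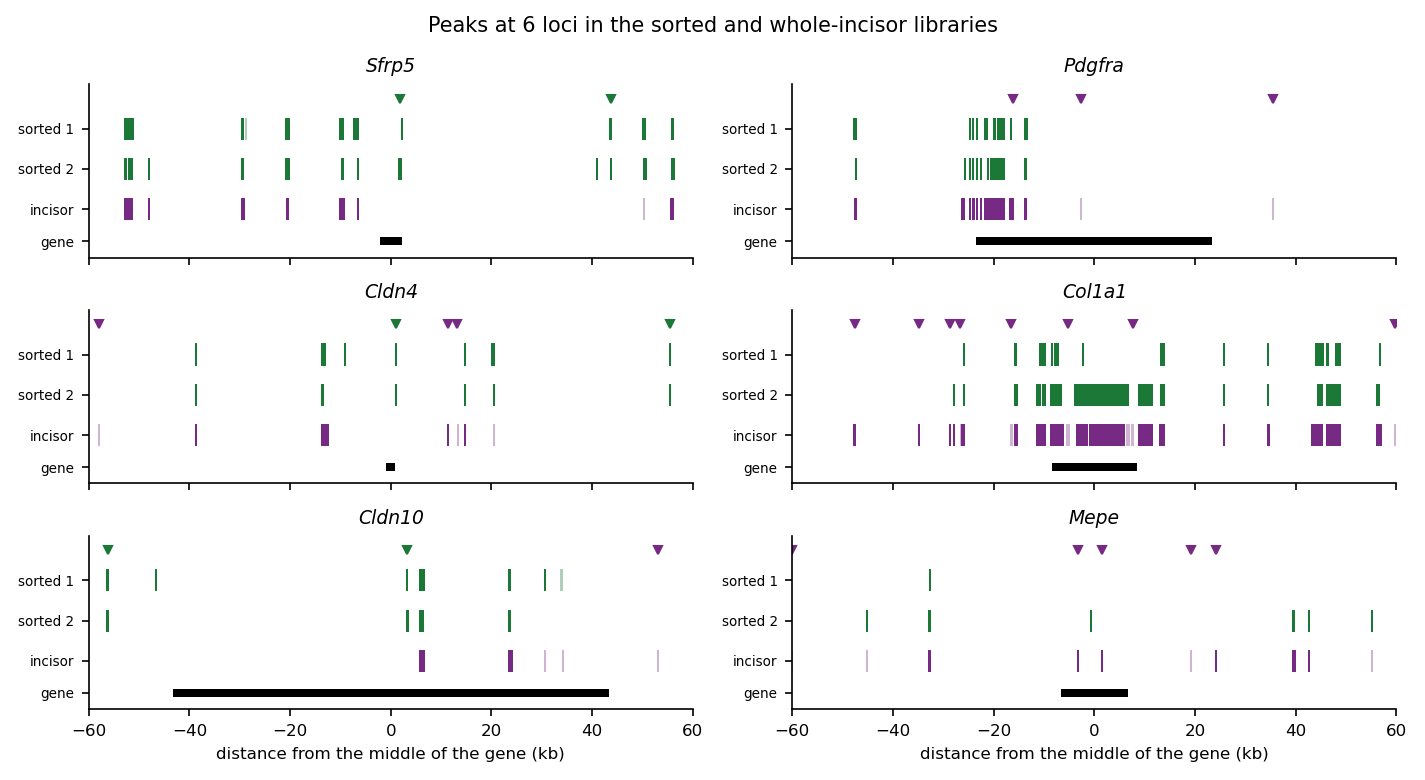
Peaks of sorted replicates 1 and 2 (green) and whole incisor (purple) within 60 kb of the middle of 6 genes (x axis, kb), in full colour if among the top 38000 of the library and pale if not. Black bars are genes, and triangles mark sorted-only (green) and incisor-only (purple) regions of the full lists: Sfrp5, Cldn4 and Cldn10 carry sorted-only regions, and Pdgfra, Col1a1 and Mepe carry incisor-only ones.

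Among the 22 general epithelial genes, Grhl2, a grainyhead-like regulator of epithelial junctions, had 2 regions that were sorted-only at both lengths, with signals of 286.3 and 244.6 at 1.58 kb from the nearer end and 396.3 and 376.6 at 50.6 kb. Both also had a peak in every ectoderm and molar library. The peak at the end of Grhl2 itself was among the top 38000 in the sorted libraries (878.0 and 628.7) and not in the incisor (287.5), and the same held for the cell adhesion gene Epcam (870.4, 723.2 and 488.3). Trp63, a master regulator of stratified epithelium, had no peak at either end in any library and a top-list sorted-only region 48.2 kb from the nearer end (810.1 and 253.5, with 340.8 in the incisor). The list as a whole had 3 sorted-only and 15 incisor-only regions at both lengths, a share of 16.7%, which is close to the 15.5% over all genes.

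Among enamel genes, each side held a protease of enamel maturation or secretion. Klk4, a serine protease that removes enamel protein in maturation, had a sorted-only region over its start at both lengths, chr7:43880996-43881371, with signals of 320.6 and 283.8. The ectoderm libraries had 1228 and 1021 there, the upper molar 209.0 and the lower molar none. Mmp20, the metalloprotease of the secretory stage, had 3 incisor-only regions at both lengths. That over the start, chr9:7628029-7628281, had 380.7 in the incisor, 553.1 and 330.0 in the lower and upper molar and no peak in the ectoderm. Ambn, which encodes the matrix protein ameloblastin, had a start peak in all 3 libraries (555.1, 394.9 and 1627) and 2 incisor-only regions farther out. Wdr72, needed for enamel maturation, had 1 region on each side. The enamel list had 2 sorted-only and 11 incisor-only regions at both lengths (15.4%). Genes of the stratum intermedium and stellate reticulum had 4 and 6, a share of 40.0% (16.8 to 68.7) against 15.5% over all genes. With all peaks they had 4 and 23 (14.8%), and with the better 50% of each list 0 and 11. Of the sorted-only regions, 2 were at Cldn10, which encodes a tight junction claudin (619.5 and 324.9, and 444.1 and 399.3), 1 was at the Notch ligand gene Jag2 (708.4 and 421.4) and 1 was at the Notch target Hes1 (476.3 and 428.9).

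Genes of mesenchyme, odontoblasts and vessels were seen on the incisor side alone at both lengths. The dental mesenchyme list had 0 sorted-only and 18 incisor-only regions, odontoblast and bone 0 and 19, and endothelium 0 and 12. A count of 0 allows sorted-only shares up to 17.6%, 16.8% and 24.2% (Wilson 95% upper bounds), each above the 15.5% over all genes. Pdgfra had an incisor-only region 6.33 kb from its start with a signal of 1000 (chr5:75158291-75158871). The homeobox gene Dlx6 had 3 such regions, from 475.2 to 607.1, and Alx4 (663.7 and 354.7), Twist2 (524.5 and 600.1) and Runx2 (587.0 and 535.5) had 2 each. Among odontoblast genes, Col1a1 had 3 (416.4 to 827.9), Mepe 3 (266.1 to 561.9) and Spp1 2 (619.4 and 574.3). Dspp, which encodes the main dentin phosphoprotein precursor, Dmp1 and Ibsp had 1 each (444.2, 431.4 and 533.2). Among endothelial genes, Tie1, Vwf, Flt1, Erg and Fli1 had 2 each. The same lists had many regions with a peak in all 3 libraries, 63 for dental mesenchyme and 32 for odontoblast and bone.

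The counts for these lists depended on the sorted library used. With all peaks the dental mesenchyme list had 0 sorted-only and 57 incisor-only regions, and 11 sorted-only regions without replicate 2. At 38000 peaks the list had 1 sorted-only region, in Runx2, and 19 incisor-only. Endothelium had 0 and 58 with all peaks, with 6 sorted-only regions without replicate 1 and 3 without replicate 2, and 6 and 12 at 38000 peaks. The 6 were 2 at Egfl7 and 1 each at Kdr, Fli1, Cldn5 and Erg, and each had an incisor peak in the full list. Odontoblast and bone had 0 and 44 with all peaks and 1 and 20 at 38000, the 1 being in Sp7. In bulk tissue, a smaller share of cells with an open site cannot be told apart from less opening per cell.

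**Figure D4:**
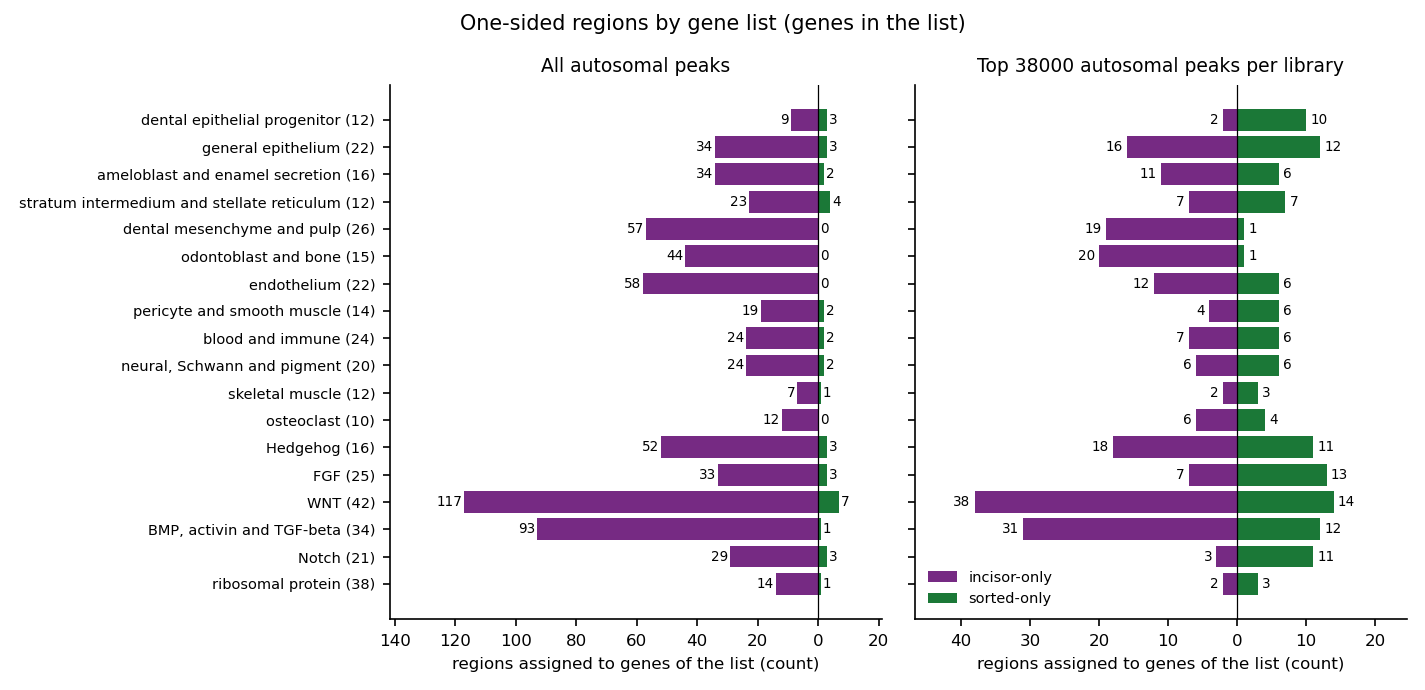
Number of incisor-only regions (purple, left of 0) and sorted-only regions (green, right of 0) assigned to the genes of 18 lists (y axis, genes in the list in brackets), with all peaks and with the top 38000 peaks per library. At 38000 peaks the progenitor list has 10 sorted-only against 2 incisor-only regions, and the odontoblast and bone list 1 against 20.

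Lists of other cell types had few regions at both lengths, with sorted-only shares of 0% to 33.3% against 15.5% over all genes. The blood and immune list had 2 sorted-only regions (Runx1 at 391.8 and 599.1, and Runx3 at 350.9 and 535.8) and 6 incisor-only, and the neural, Schwann and pigment list had 1 (Dct at 729.7 and 237.0) and 4. Pericyte and smooth muscle had 1 (Cspg4 at 605.2 and 375.4) and 4, skeletal muscle 1 (Myh3 at 437.9 and 430.6) and 2, and osteoclast 0 and 6. Runx1 and Runx3 encode transcription factors that epithelium also uses. Not counted there was a region sorted-only at both lengths that lay 0.746 kb from the start of Tyrobp, another member of the blood and immune list. Its centre lay in Hcst, to which it was assigned. It had signals of 772.1 and 355.0 and a peak in no other library of the series. Ribosomal protein genes, whose 38 starts had a peak in every library, had 1 and 2.

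Of the signalling pathways, Notch had the most even split at both lengths, where 15.5% of the one-sided regions over all genes were sorted-only. The Notch list had 3 sorted-only regions, at Jag2, Hes1 and the receptor gene Notch2 (278.6 and 210.1), and 3 incisor-only, a share of 50% (18.8 to 81.2). The Jag2 and Hes1 regions are those already counted for the stratum intermedium and stellate reticulum list, so the shares of these lists are not separate results. The Notch counts moved with the list: they were 3 and 29 with all peaks (9.38%, 3.24 to 24.2, against 5.69% over all genes) and 11 and 3 at 38000 peaks by p-value (against 37.1%). They were 10 and 8 at 38000 peaks by signal and 1 and 22 with the better 50% of each list. Of the 11, 2 each were at Nrarp, a feedback inhibitor, and at Notch3. The FGF list had 2 and 7 at both lengths and 13 and 7 at 38000 peaks. Its 2 were at the ligand gene Fgf4, 1.02 kb from the start (358.9 and 218.9, with 408.7 and 505.3 in the molars), and at the feedback inhibitor gene Spry4 (238.0 and 634.4). The WNT list had 6 and 35, the sorted-only regions being 2 at the receptor gene Fzd7 and 1 each at Sfrp5, the ligand gene Wnt7b and the feedback inhibitor genes Axin2 and Nkd1. The Fzd7 regions differed outside the comparison. That at 42.5 kb from the start (550.1 and 652.2) had a peak in no other library, and that at 32.9 kb (552.3 and 666.3) had one in all 4. The BMP, activin and TGF-beta list had 1, at Bmp7 (361.7 and 427.8), against 30, a share of 3.23% (0.572 to 16.2). The Hedgehog list had 0 and 17 at both lengths (0 to 18.4) and 11 and 18 at 38000 peaks, a share of 37.9% against 37.1% over all genes. The intervals of both lists at both lengths contain the 15.5% over all genes. Of the 11, 3 were in Ptch1, the Hedgehog receptor, and 1 was 2.76 kb from an end of Shh, and each had an incisor peak in the full list.

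Ectoderm peaks at E11.5, which the rule did not use, were less frequent under incisor-only than under sorted-only regions. Their full lists were looked up at either list length. Of the regions sorted-only at both lengths, 50.2% had a peak in at least 1 ectoderm library (47.3 to 53.1), and of the incisor-only regions 22.0% did (21.0 to 23.1). Over all 69328 regions the share was 49.1%, so sorted-only regions stood near it and incisor-only regions below it. Over the 52514 regions of the top lists it was 55.8%. Over 1 kb from a gene start, a subset chosen after seeing the data, the shares were 48.1% and 20.9%. Regions within 1 kb of a start made up 5.45% of the sorted-only and 3.09% of the incisor-only set, so leaving them out could move the shares little. Molar peaks gave no one order. At both lengths they lay under 65.9% of sorted-only (63.0 to 68.6) and 76.7% of incisor-only regions (75.6 to 77.8). With all peaks the shares were 63.8% and 59.1%, and at 38000 peaks 81.8% and 77.8%, so the order was reversed only among the regions that kept their side at both lengths. Among those regions, a molar peak without an ectoderm peak was found under 27.3% and 57.0%, and an ectoderm peak without a molar peak under 11.6% and 2.35%. None of the 4 other libraries had a peak under 22.5% and 20.9%. Regions in all 3 compared libraries had an ectoderm peak in 74.5% of cases and a molar peak in 97.5%.

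The ectoderm share moved with the sorted replicate. With all peaks it was 50% for sorted-only regions, 50% without replicate 2 and 35.4% without replicate 1. Regions with a peak in replicate 1 alone had an ectoderm peak in 49.9% of cases and those in replicate 2 alone in 22.3%. With the incisor added the shares were 50.3% and 24.6%. Leaving out a replicate also changes the incisor-only set, whose ectoderm share was 24.6% with both, 24.7% without replicate 2 and 30.8% without replicate 1 (30.3 to 31.3). Without replicate 1 the sides thus stood at 35.4% (33.6 to 37.2) and 30.8%, a much smaller gap. Of the 49 incisor-only regions at both lengths in the mesenchyme, odontoblast and endothelium lists, 2 had an ectoderm peak, both of odontoblast and bone genes.

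**Figure D5:**
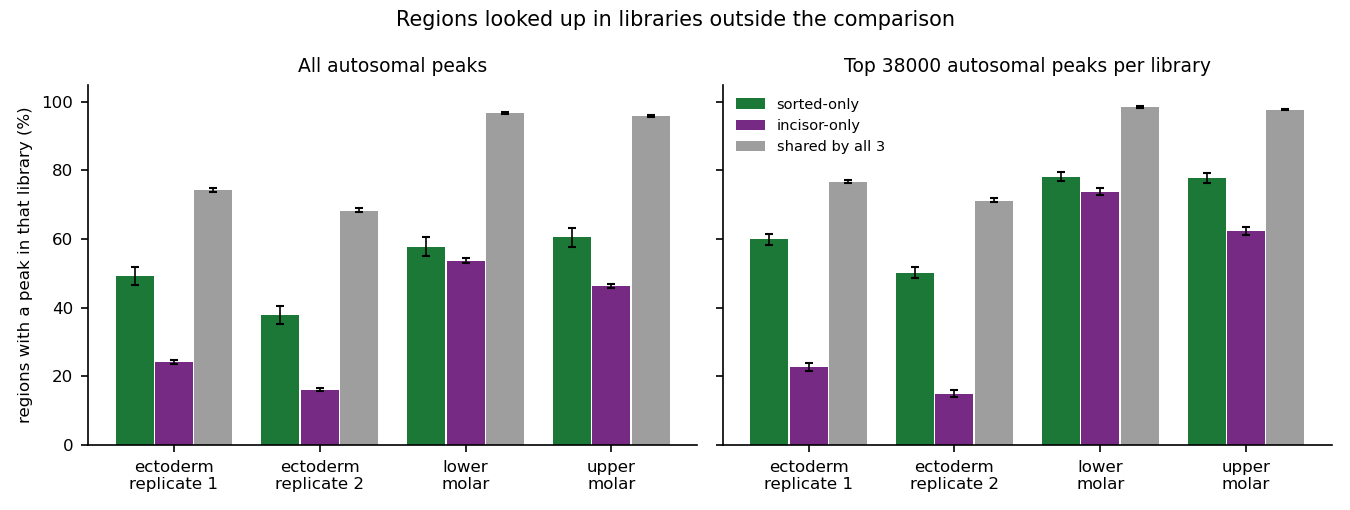
Share of sorted-only, incisor-only and shared regions (y axis, percent) with a peak in each library outside the comparison (x axis), with all peaks and with the top 38000 peaks per library in the sorted and incisor lists and the full lists of the others. Bars give Wilson 95% intervals; in both ectoderm libraries the sorted-only share lies above the incisor-only share.

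At gene starts, 32 genes lay under a region sorted-only at both lengths and 66 under one incisor-only. Over all genes, a peak within 1 kb of a start in both sorted libraries and none in the incisor was found for 0.227% (47 genes) with all peaks and 1.83% (378) at 38000 peaks, and the reverse for 2.33% (482) and 0.610% (126). Of the 32, 30 had a peak over that region in each ectoderm library, 27 in the lower molar and 29 in the upper molar. Of the 66, 41 and 31 did in the ectoderm and 60 and 46 in the molars. Over all 69328 merged regions the shares were 48.7% and 41.0% in the ectoderm and 73.6% and 70.4% in the molars. Most of those regions lie away from starts, and the shares over all gene starts in these libraries are not given here. By signal the first of the sorted-only starts was Rab25, a GTPase of epithelial vesicle recycling, with 1158 and 853.7 in the sorted libraries, 2099 and 1471 in the ectoderm and 1665 and 1680 in the molars. Cldn4, which encodes a tight junction claudin, had 415.5 and 278.1, with 4377 and 3824 in the ectoderm and 824.5 and 656.1 in the molars. Krt18, a keratin of simple epithelia, had 437.4 and 283.6, and Tert, the catalytic subunit of telomerase, 405.6 and 259.1. Slc13a2, a dicarboxylate transporter gene, had 748.4 and 743.0 and was one of 2 with no peak in any other library, the other being Ftdc2 (460.0 and 349.9). The incisor-only start with the highest signal was that of Galnt6, an enzyme that starts O-linked glycosylation, with 1687 in the incisor, 1421 and 1204 in the molars and 470.2 in ectoderm replicate 1. Fetub, which encodes a protease inhibitor, had 1091, with 1648 and 1048 in the molars and no ectoderm peak. Fhit had 1069 and the WNT receptor gene Fzd10 793.8, and both had a peak in all 4 other libraries. Zeb2, a repressor of epithelial genes, had 669.1 at 1 of its starts.

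Neither side held strong peaks. Median rank within the list stood at 59.5% and 77.2% from the top for sorted-only regions in replicates 1 and 2, and at 75.8% for incisor-only regions, against 23.3% to 37.9% for shared regions. None of the sorted-only and 1 of the incisor-only regions was in the top 10% of its list. Median width was 530.5 bp for sorted-only, 381.0 bp for incisor-only and 897.0 bp for shared regions. These widths depend in part on the definition, because a shared region joins peaks of all 3 libraries, a sorted-only region those of both sorted libraries and an incisor-only region those of the incisor alone. A gene start lay within 1 kb of 5.45% of sorted-only (4.27 to 6.94) and 3.09% of incisor-only regions (2.68 to 3.57) at both lengths, against 39.0% of shared regions. A peak of the other side lay within 10 kb of 56.1% of sorted-only and 55.5% of incisor-only regions with all peaks.

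The sorted-only regions ranking best at both lengths were mostly inside genes and away from starts. The first was in Lancl1, 16.5 kb from the start (chr1:67021994-67022695, 1339 and 1256), and both molars had a peak there (1277 and 1549). The second was in Exoc6 (1258 and 1257), the third in Mroh2a (1243 and 1258) and the fifth in Heg1 (1204 and 1103). A region in Fndc3b (1049 and 1056) had a peak in no other library. The incisor-only regions ranking best were in Thsd4 (2477), near Wee1 (2297) and Prr5 (2232), and in Slco3a1 (2080), and each had a peak in both molars.

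By number of regions, with all peaks, Mroh2a had the most sorted-only regions of any gene, 6, with no incisor-only region. They were part of a run of 7 within 40.2 kb at Mroh2a and Ugt1a1 (chr1:88213646-88253887), none with an ectoderm peak. Grik4, a glutamate receptor gene of 427 kb, had 5, and Tenm4 and Ptprm 4 each. These 3 genes had more incisor-only regions, 12 in Grik4, 14 in Tenm4 and 9 in Ptprm. Another run held 4 regions within 3.37 kb on chromosome 14 (chr14:19415670-19419035) with no gene assigned. In all, 6 sorted-only runs of 3 or more regions held 23 regions, whereas 1821 incisor-only runs held 7386. Tanc1 had the most incisor-only regions, 24, followed by Prex1 with 21 and Thsd4 and Rad51b with 20 each. Smad6, an inhibitor of BMP signalling, had 16 within 142 kb and none sorted-only, at a gene of 69.0 kb. Over all genes, 4.10% (848) had a sorted-only and 16.7% (3446) an incisor-only region at both list lengths, and these shares were 4.49% and 35.7% with all peaks and 11.7% and 17.0% at 38000 peaks.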

How the data were processed

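Omni-ATAC libraries of mouse tissue were deposited as 1 narrowPeak list per library. The submitters' processing notes name FastQC, Trimmomatic, Bowtie2, deepTools and Genrich and the build mm10, with no version, and read filters and the transposase shift are not given in the sources used here. Each deposited peak has a signal, which Genrich normally computes as the area under its significance curve, and every deposited signal was at least 200.0. The authors also deposited a −log10 p-value per peak. The files record no scaling across libraries, and both values were therefore used within 1 list at a time. Depth is unknown.

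Autosomal peaks of the 3 libraries were merged where they shared at least 1 bp, with Python 3.11.15, pandas 2.3.3 and SciPy 1.17.1, once for all peaks and once for the 38000 peaks with the largest −log10 p. A region was assigned to the gene that contains its centre or to the nearest gene end within 50 kb, using 20665 autosomal protein-coding genes of RefSeq on GRCm38.p6, the assembly that mm10 names. Starts came from the RefSeq promoter table, and for the 4208 genes it does not hold either gene end counted as a start. Signals given for a region are the highest of its peaks in a library. The steps were tested on simulated lists.

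The genes named are those with the most one-sided regions, the regions with the best mean rank at both list lengths, the members of 18 gene lists with regions at both lengths, and the progenitor and mesenchyme genes. Further members and start genes were chosen after their values were seen. Some list members are counted with their list and not reported here by name. The members and lists were chosen with earlier results of these data known. Motifs were to be counted over regions, but no genome was used here, so they were counted in promoters. Whether the sorted replicates came from separate animals is not given, so their spread may be technical. Alternatives changed list length, overlap rule, summit windows, gene assignment, start window, chromosomes and sorted replicate.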

Additional observations from a re-analysis of the deposited data

Results flagged for a closer look

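Sex chromosomes and unplaced contigs were outside the rule. Chromosome X held 14 sorted-only and 221 incisor-only regions by the same definition. Chromosome Y had 10 peaks in sorted replicate 1, none in replicate 2 and 5 in the incisor. Contigs not placed on a chromosome had 48 and 44 peaks in the sorted libraries and 37 in the incisor. Each of these counts above 0 exceeds the 3 that a count of 0 allows, which is why they are given, and their source was not tested.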

How the results depend on the processing

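Most counts moved with list length: of 60 values for gene lists and single genes, 51 moved beyond 1.5 times at the top 38000 by p-value and 50 by signal. The first value in each comparison below is for the top 38000 peaks by p-value and the second for the top 38000 by signal. Sorted-only regions were 3730 and 3619 and incisor-only regions 6381 and 6079, a sorted-only share of one-sided regions of 36.9% and 37.3% in place of 5.88%. Shares within 1 kb of a start were 12% and 10.5% for sorted-only and 3.21% and 3.52% for incisor-only regions. Sorted-only regions with an ectoderm peak were 60.5% and 60.3%, and incisor-only regions with a molar peak 77.8% and 77.2%. Genes with a sorted-only region were 2415 and 2381 and with an incisor-only region 3522 and 3380.

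With the better 50% of every list by p-value these values were 599 and 10289 regions, a share of 5.50%, 12.5% and 8.17% near a start, 64.8% with ectoderm, 89.4% with molar and 462 genes with a sorted-only region. With 200 bp summit windows they were 2383 sorted-only regions, 9.48%, 21.7% and 6.07% near a start, 64.3%, 61.1% and 1814 genes. With 50% of a region covered they were 6.37%, 8.08%, 4.49%, 54.4% and 61.0%. Requiring no peak within 500 bp gave 3.39% of incisor-only regions near a start, a 500 bp start window gave 3.79% for sorted-only and 2.66% for incisor-only regions, and assignment within 25 kb gave 613 genes with a sorted-only region. Away from starts, an alternative chosen after seeing the data, the top 38000 peaks gave 56.0% with ectoderm and 77.4% with molar.

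Leaving out a sorted replicate gave 2838 to 6389 sorted-only regions, of which the first is without replicate 1, and a share of 9.41% to 18.8%. Genes with a sorted-only region were 1891 to 3656, incisor-only regions near a start 4.65% to 5.02%, sorted-only regions with ectoderm 35.4% to 50%, and incisor-only regions with a molar peak 61.7% to 66.1%. The ectoderm share of incisor-only regions with a replicate left out (24.7% to 30.8%) was added after seeing the data. The cause of these moves beyond fewer peaks or libraries was not tested. Adding X and Y moved none of the 60 values computed. No paired analysis was possible because the incisor has 1 library and the results come from no test.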
